A study of Mus musculus with 22 samples.

Results

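The 36 genes described here encode proteins that build ribosomes in the nucleolus. They were chosen by name, with earlier results of these data known. Every listed gene was found in the deposited table of unique molecular identifier (UMI) counts, so 36 of 36 were present among 14407 genes. The counts came from 5′-end single-cell RNA sequencing of splenic germinal center B cells sorted from immunized C57BL/6 mice that were 8 weeks old. Cells of 1 library, OVA 1, were total germinal center B cells of mice given 100 μg OVA with alum and 1 μg LPS, and the day of that sort is not given in the sources used here. Cells of the other libraries, NP 1 and NP 2, bound the hapten NP and were taken on day 13 after 100 μg NP(23)-KLH with the same alum and LPS. Antigen and sorting gate therefore differ together between OVA and NP, and their effects cannot be told apart. No label says how many animals were pooled in a library. A p-value between groups of cells reflects how far their differences varied over these 3 libraries. In the test of OVA against NP it reflects the scatter between NP 1 and NP 2. Either scatter may be technical.

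Ribosome production starts in the nucleolus, where RNA polymerase I transcribes the long precursor of the ribosomal RNAs. Small nucleolar ribonucleoproteins guide the chemical modification of this precursor: box C/D particles carry out methylation and box H/ACA particles form pseudouridine. Assembly factors then fold, cut and package the RNA with ribosomal proteins into the small and the large subunit. Myc, a transcription factor that a minority of light zone germinal center B cells switch on after T cell help, is a known activator of many of these genes. Germinal center cells divide rapidly in the dark zone, and at mitosis the nucleolus is taken apart in animal cells.

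The deposited table held 3004 cells with 21412501 UMIs in OVA 1, 3765 cells with 20533741 UMIs in NP 1 and 2104 cells with 16161435 UMIs in NP 2. A filter of at least 500 genes and at most 10% mitochondrial UMIs kept 2385, 2600 and 1756 cells in OVA 1, NP 1 and NP 2. Every kept cell with enough reads was thinned to 2500 UMIs, which left 6094 cells and set aside 647 shallower ones. No doublet caller was run, and 31 barcodes occurred in more than 1 library, 17 of them among kept cells. The defining B cell genes (5 of 5 detected) summed to 6705 to 7246 CPM (UMIs scaled to the total of the sum they belong to, so that each total is equal) in whole libraries and the germinal center list (8 of 8) to 1821 to 2282.

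Classes were set on the thinned counts. Myc+ cycling cells had at least 1 Myc UMI and at least 1 UMI of Mcm5 or Rrm2, which serve DNA replication; there were 75 in OVA 1, 82 in NP 1 and 43 in NP 2. Myc+ noncycling cells had Myc but neither of those genes, and numbered 115 in OVA 1, 63 in NP 1 and 61 in NP 2. Mitotic cells, 917 in all, had no Myc UMI and at least 3 UMIs over 10 mitotic genes such as Cdc20 and Plk1. They could also hold the replication genes: Mcm5 was detected in 308 and Rrm2 in 255 of them. Myc- cycling cells, 1797 in all, had Mcm5 or Rrm2 without Myc and were not mitotic. Cd83-high noncycling cells, 711 in all, had at least 2 UMIs of the light zone marker Cd83 and no UMI of Myc, Mcm5, Rrm2 or the mitotic genes. The cycling label is thus a call from 1 UMI, mostly of Mcm5 (169 of 200 Myc+ cycling cells), and does not measure DNA replication: an Mki67 UMI was present in 92 of 200 Myc+ cycling, 43 of 239 Myc+ noncycling and 866 of 1797 Myc- cycling cells. A cell without a Myc UMI is not a cell without Myc: at this depth 439 of 6094 cells, 7.20% (95% exact interval 6.57 to 7.88%), held one. Among 14 cells rich in myeloid UMIs none did, an interval that reaches 23.2%, so the background of free Myc RNA could not be measured.

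Of the 36 genes, 32 had a promoter window in the RefSeq table of build GRCm38.p6, which runs from 250 bases before to 50 bases after the annotated start. The E-box CACGTG, the sequence bound by Myc with its partner Max and by other factors of that family, was searched because Myc marks the cells compared; it equals its own reverse complement, so both strands were read at once. It was present for 7 of the 32 genes (21.9%), namely Nop2, Ltv1, Pes1, Pno1, Mybbp1a, Tsr1 and Wdr43. The same letters stood in the windows of 12.8% of the genes tested between classes and 8.09% of all genes in that table. Among other ribosome biogenesis genes, a list described below, 18 of 98 (18.4%) had it. Of the 10 genes whose level followed the Myc UMI count, 9 had a window and 1, Mybbp1a, held the motif. A match describes letters only, and a window without one says nothing about binding elsewhere. The windows of Mybbp1a, Nop2 and Pes1 show the motif at 3 different places, in capitals, at bases 41, -60 and 3 counted from the start; that of Gnl3, the gene with the steepest slope over Myc UMIs, is shown as 1 without it.
Mybbp1a promoter, chr11:72441077-72441376, plus strand: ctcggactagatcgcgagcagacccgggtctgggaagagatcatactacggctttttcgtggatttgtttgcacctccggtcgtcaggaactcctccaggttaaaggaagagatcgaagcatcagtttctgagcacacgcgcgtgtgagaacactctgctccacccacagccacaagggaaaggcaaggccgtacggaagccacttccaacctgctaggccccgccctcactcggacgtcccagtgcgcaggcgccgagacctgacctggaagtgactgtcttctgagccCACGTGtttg
Nop2 promoter, chr6:125131633-125131932, plus strand: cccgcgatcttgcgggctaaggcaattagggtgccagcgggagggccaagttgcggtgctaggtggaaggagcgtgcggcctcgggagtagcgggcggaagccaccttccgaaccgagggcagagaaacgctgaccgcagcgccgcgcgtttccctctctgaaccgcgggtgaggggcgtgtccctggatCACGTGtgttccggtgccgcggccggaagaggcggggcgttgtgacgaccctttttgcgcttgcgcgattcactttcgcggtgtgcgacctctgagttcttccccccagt
Pes1 promoter, chr11:3963725-3964024, plus strand: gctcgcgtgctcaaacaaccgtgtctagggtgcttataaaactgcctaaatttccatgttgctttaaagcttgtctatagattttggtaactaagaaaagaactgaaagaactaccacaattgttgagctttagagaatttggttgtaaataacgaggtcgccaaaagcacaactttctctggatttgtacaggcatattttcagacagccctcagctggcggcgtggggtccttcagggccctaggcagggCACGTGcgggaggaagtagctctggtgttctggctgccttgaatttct
Gnl3 promoter, chr14:31019082-31019381, minus strand: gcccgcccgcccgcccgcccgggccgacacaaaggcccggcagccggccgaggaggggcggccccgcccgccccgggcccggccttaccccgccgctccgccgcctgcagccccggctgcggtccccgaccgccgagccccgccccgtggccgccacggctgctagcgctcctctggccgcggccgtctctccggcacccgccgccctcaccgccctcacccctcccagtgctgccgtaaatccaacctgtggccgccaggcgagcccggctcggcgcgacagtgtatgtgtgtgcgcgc

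The summed UMIs of the 36 genes were highest in Myc+ cycling cells of every library. Per cell of 2500 UMIs, these genes gave a mean of 12.6 UMIs in OVA 1, 14.7 in NP 1 and 13.3 in NP 2 for Myc+ cycling cells, against 10.7, 9.87 and 9.79 for Myc- cycling cells. Myc+ noncycling cells had 9.33, 11.9 and 10.9 UMIs in OVA 1, NP 1 and NP 2, against 8.08, 8.20 and 9.13 in Cd83-high noncycling cells. The Myc+ class was the higher within each of the 3 libraries in both pairs, and the ranges of the class pairs did not overlap. Cd83-high noncycling cells are no matched counterpart, since they were also selected for Cd83 and for no mitotic UMI. Nor are Myc- cycling cells, since cells with at least 3 mitotic UMIs were taken out of them but not out of Myc+ cycling cells. The 2225 cells with Mcm5 or Rrm2 but no Myc, mitotic ones included, had 10.5, 9.81 and 9.78 UMIs in the same library order. All 3430 cells without a UMI of Myc, Mcm5 or Rrm2 had 8.00, 7.92 and 8.33 UMIs in OVA 1, NP 1 and NP 2. As a share of all UMIs, the sum took 0.541 ± 0.042% in Myc+ cycling, 0.428 ± 0.052% in Myc+ noncycling, 0.366 ± 0.004% in mitotic, 0.405 ± 0.021% in Myc- cycling and 0.339 ± 0.023% in Cd83-high noncycling cells (SD, n = 3 libraries).

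**Figure D1:**
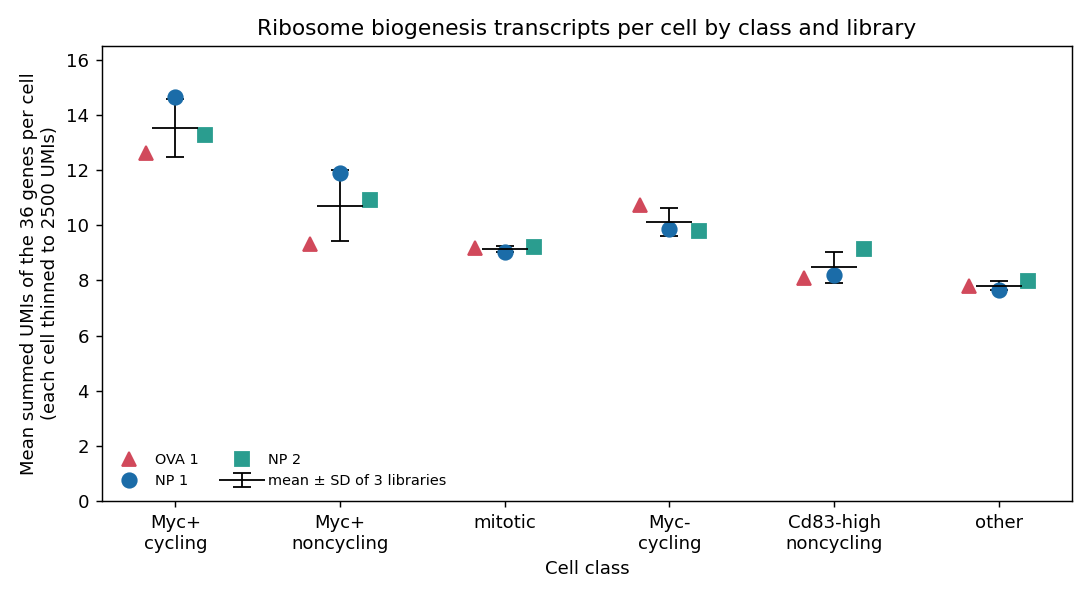
Mean summed UMIs of the 36 genes per cell (y axis, cells thinned to 2500 UMIs) in 6 cell classes; points are libraries, bars the mean and SD of 3 libraries. Myc+ cycling cells sit at 12.6 to 14.7 UMIs, above every other class, and mitotic cells at 9.02 to 9.23, below the Myc- cycling cells at 9.79 to 10.7.

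These are shares of a fixed number of UMIs. Without thinning, Myc+ cycling cells held a mean of 70.4 ± 0.5 UMIs of the 36 genes, Myc- cycling cells 46.2 ± 7.7 and Cd83-high noncycling cells 23.1 ± 4.3 (SD, n = 3), and the classes also differed in depth, with median totals of 10809, 9530 and 5779 UMIs over all libraries. In whole libraries the sum took 0.361% of UMIs in OVA 1, 0.361% in NP 1 and 0.363% in NP 2. Npm1, a histone chaperone and one of the most abundant nucleolar proteins, supplied 26.1% of the members' UMIs, and Ncl, the RNA-binding protein nucleolin, 12.5%. The Myc+ cycling cells were still 1.17-fold (OVA 1), 1.48-fold (NP 1) and 1.43-fold (NP 2) above Myc- cycling cells when Npm1 and Ncl were left out of the sum. At the other end, Polr1b, a core subunit of RNA polymerase I, had 116 UMIs and Rrp12, known in yeast as a factor for export of ribosomal subunits, 144 UMIs in all 6094 cells. Reads of 5′ ends do not grow with transcript length, but Npm1 has processed pseudogenes with which its reads may be shared.

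The comparison of Myc+ cycling with Myc- cycling cells asks how the genes differ with Myc detection when both classes hold a UMI of Mcm5 or Rrm2. Summed counts per class and library were tested with edgeR's quasi-likelihood test, with the library as a block and Benjamini-Hochberg adjustment over all genes. Of the 36 genes 35 passed the low-count filter; 32 had a positive log2 fold change, 4 passed the adjusted threshold of 0.05 upward and none downward, where 0.512% of all 7614 genes tested were called higher and 0.0657% lower. The median log2 fold of the members was 0.41, against -0.02 over all genes. The classes also differed in light zone markers (8 of 8 detected), which summed to 2565, 3302 and 1553 CPM in Myc+ cycling cells of OVA 1, NP 1 and NP 2, against 1346, 1378 and 1092 in Myc- cycling cells; their part in the result was not tested.

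Gnl3, which encodes nucleostemin, a GTPase of the nucleolus that acts in large subunit assembly, had 112, 146 and 93.0 CPM in Myc+ cycling cells of OVA 1, NP 1 and NP 2, against 69.1, 53.2 and 41.1 in Myc- cycling cells. The groups did not overlap, and its log2 fold was 1.10 ± 0.23 (SE, adjusted p = 0.0052). Npm1 had 1339, 1556 and 1535 CPM in Myc+ cycling cells of OVA 1, NP 1 and NP 2, against 1080, 1058 and 1146 in Myc- cycling cells. Again no Myc+ library reached down to a Myc- one, with a log2 fold of 0.41 ± 0.08 (adjusted p = 0.0026).

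Rrp9, the protein specific to the U3 particle that directs the first cuts of the small subunit precursor, had 69.3, 63.4 and 55.8 CPM in Myc+ cycling cells of OVA 1, NP 1 and NP 2, against 33.1, 26.9 and 17.1 in Myc- cycling cells. Its counts were few, 32 UMIs in Myc+ cycling cells of all libraries, yet the groups stood apart at a log2 fold of 1.24 ± 0.31 (adjusted p = 0.030). Nhp2, a core protein of box H/ACA particles, had 203, 298 and 223 CPM in Myc+ cycling cells of OVA 1, NP 1 and NP 2, against 153, 158 and 143 in Myc- cycling cells. These groups did not overlap either, and the log2 fold was 0.68 ± 0.17 (adjusted p = 0.030).

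By libraries alone, 16 of the 36 members lay higher in all Myc+ cycling sums than in any Myc- cycling sum and 0 lay lower, where 5.45% of all genes tested did so upward and 5.88% downward. Wdr43, a small subunit factor that passed no adjusted test here, had 155, 107 and 121 CPM in Myc+ cycling cells of OVA 1, NP 1 and NP 2, against 79.1, 91.0 and 58.2 in Myc- cycling cells. Nop10, the small structural protein of box H/ACA particles, overlapped, at 261, 249 and 298 CPM in Myc+ cycling cells and 288, 251 and 264 in Myc- cycling cells. Single calls moved with the random draw of UMIs, which also sets which cells hold a Myc UMI: a second draw called 0 members at 28 of 34 positive folds, and leaving out NP 1 also called 0, at 31 of 36. At 4000 UMIs per cell, with the classes set anew, 5 members were called and 34 of 36 folds were positive. Of the 4 genes above, Npm1 alone was among those 5. With all UMIs kept, 12 members were called, among them the same 4 genes, and 36 of 36 folds were positive. The cells there stayed in the classes of the first draw, and deep cells weigh more in the sums. That refit therefore does not test the dependence on the draw.

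Of the 36 members, 19 passed in none of the 8 tests reported here: Ddx21, Nop10, Gar1, all 3 polymerase I subunits, Bop1, Wdr12, Nop2, Noc3l, Nip7, Nop14, Noc4l, Wdr43, Rrp12, Bysl, Pno1, Tsr1 and Ltv1. Their mean levels over whole libraries ran from 7.47 to 249.5 CPM, and Rrp12 missed the count minimum of the comparisons between pairs of classes. In Myc+ cycling against Myc- cycling cells 16 of the 18 tested had positive log2 folds, between -0.04 and 0.76. Polr1c, a subunit shared by RNA polymerases I and III, had 53.3, 48.8 and 74.4 CPM in Myc+ cycling cells of OVA 1, NP 1 and NP 2, against 31.7, 37.2 and 36.8 in Myc- cycling cells. Its ranges were apart, but its log2 fold of 0.63 ± 0.31 rested on 28 UMIs in Myc+ cycling cells and had an adjusted p of 0.62 (edgeR). Pno1, which acts late in small subunit maturation, had 85.3, 122 and 65.1 CPM in Myc+ cycling cells of OVA 1, NP 1 and NP 2, against 57.6, 60.5 and 55.7 in Myc- cycling cells (log2 fold 0.69 ± 0.24, adjusted p = 0.30). Its groups did not overlap either, and it passed in 1 of 13 refits, that with all UMIs kept; Pno1 was picked as an example after its values were seen.

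**Figure D2:**
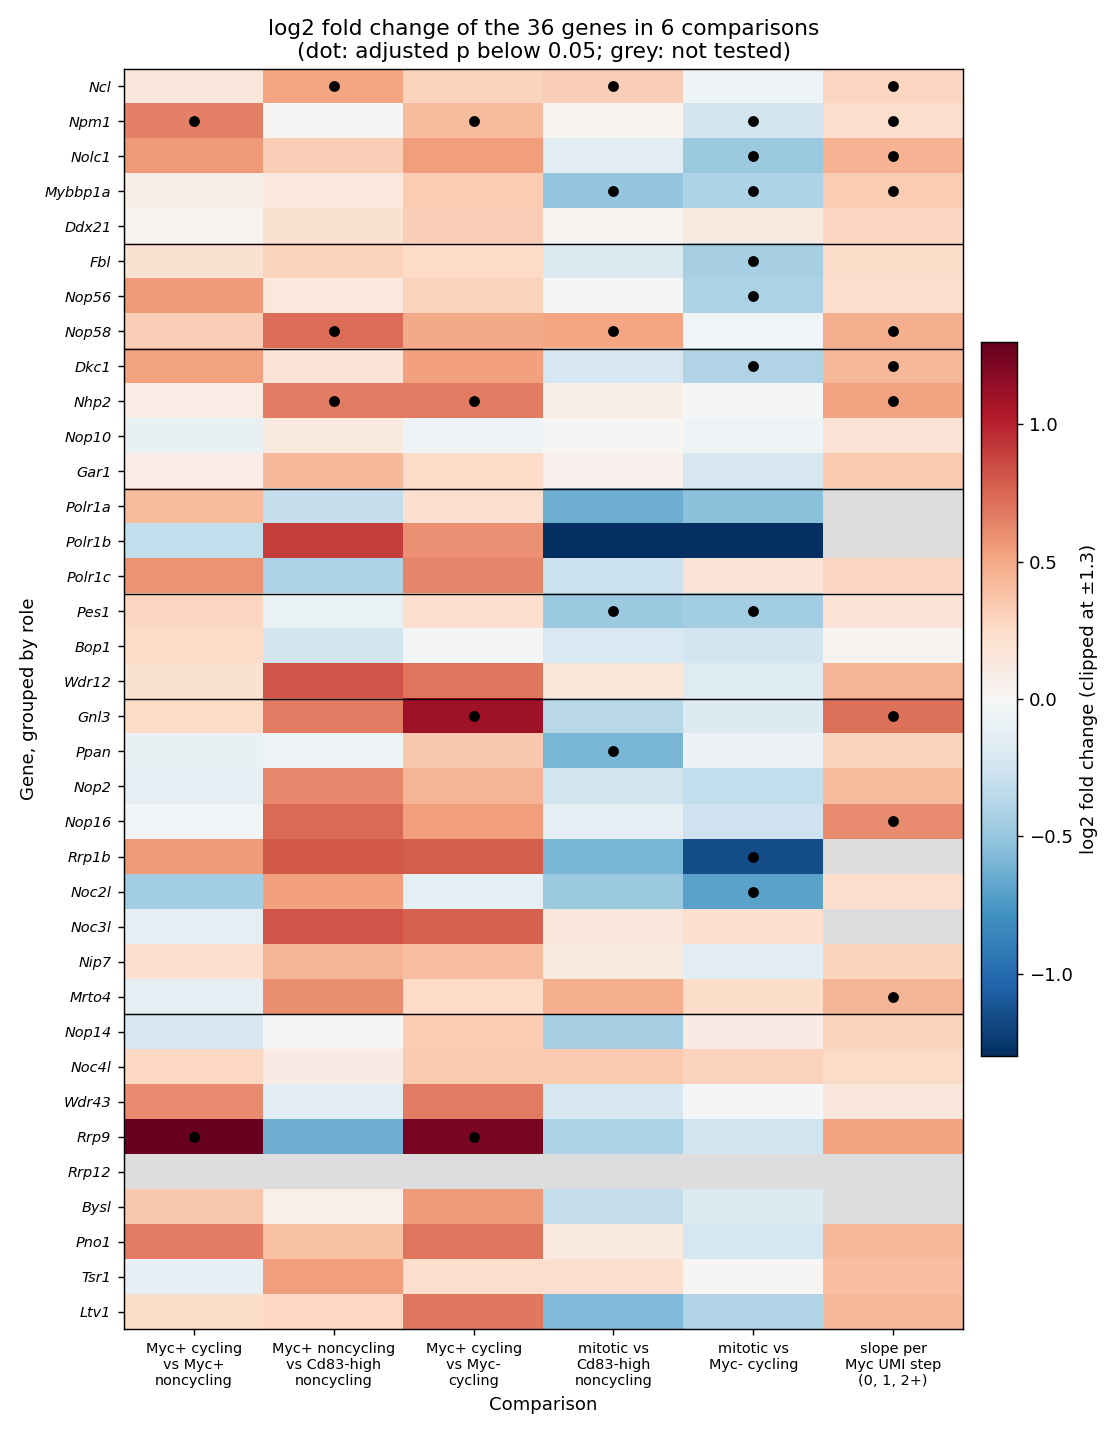
Heat map of log2 fold changes of the 36 genes (rows, grouped by role) in 6 comparisons (columns); colour gives the fold change, clipped at 1.3, a dot marks an adjusted p below 0.05, and grey marks genes not tested. The column of slopes over Myc UMIs is positive for 30 of 30 genes tested, and the mitotic against Myc- cycling column holds 9 called genes, all lower.

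Cells were also ordered by their Myc UMIs as 0, 1 and at least 2, with a slope fitted per step and the library as a block; this uses the same cells as the Myc comparisons and is no separate evidence. The members' sum took 0.353 ± 0.003%, 0.460 ± 0.038% and 0.533 ± 0.110% of UMIs at 0, 1 and at least 2 Myc UMIs (SD, n = 3 libraries). The cells with at least 2 Myc UMIs numbered 57 in OVA 1, 42 in NP 1 and 16 in NP 2. Slopes were positive for 30 of the 30 members that passed the filter, with a median of 0.31 log2 units per step, against -0.00 over all genes. Of these, 10 were called higher and none lower, where 3.32% of 4097 genes were called higher and 1.59% lower.

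Gnl3 had the steepest called slope. In OVA 1 it had 63.9, 105 and 133 CPM at 0, 1 and at least 2 Myc UMIs; in NP 1 it had 46.0, 120 and 124; in NP 2 it had 47.3, 81.8 and 125. It increased at each step in every library, with a slope of 0.71 ± 0.12 (SE, adjusted p = 4.3e-05). The last step was small in NP 1, from 120 to 124 CPM, and rests on 16 cells in NP 2. Nop16, a large subunit factor, followed at 0.62 ± 0.12 (adjusted p = 0.00041). Its values were 61.5, 81.2 and 98.2 CPM in OVA 1, 64.0, 101 and 248 in NP 1, and 68.6, 72.7 and 175 in NP 2. Most of its increase thus came at the last step in the NP libraries, which rests on 42 cells in NP 1 and 16 in NP 2.

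Nhp2 had 129, 168 and 196 CPM in OVA 1, 134, 283 and 333 in NP 1, and 145, 236 and 200 in NP 2 at 0, 1 and at least 2 Myc UMIs. Its slope was 0.52 ± 0.09 (adjusted p = 7.1e-05), although NP 2 was lower at the last step, which rests on 8 UMIs there. The other called slopes belonged to Nop58, Nolc1, Mrto4, Dkc1, Mybbp1a, Ncl and Npm1 and lay between 0.23 and 0.47. Of the 5 major nucleolar proteins 4 were called, as were 1 of 3 box C/D proteins, 2 of 4 box H/ACA proteins, 3 of 7 tested large subunit factors, 0 of 7 tested small subunit factors and 0 of 3 genes of PeBoW, a complex for large subunit processing. The median slopes were 0.28, 0.23, 0.39, 0.41, 0.39 and 0.18 for these 6 groups in the same order, and differences between groups were not tested. Leaving out NP 1 kept 1 call, Gnl3, and leaving out OVA 1 kept 6 of the 10. Keeping all UMIs, in cells still ordered by the Myc UMIs of the first draw, gave 30 calls that held all 10. Gnl3 was the 1 member whose slope passed in all 13 refits, with adjusted p from 4.8e-07 to 0.010.

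**Figure D3:**
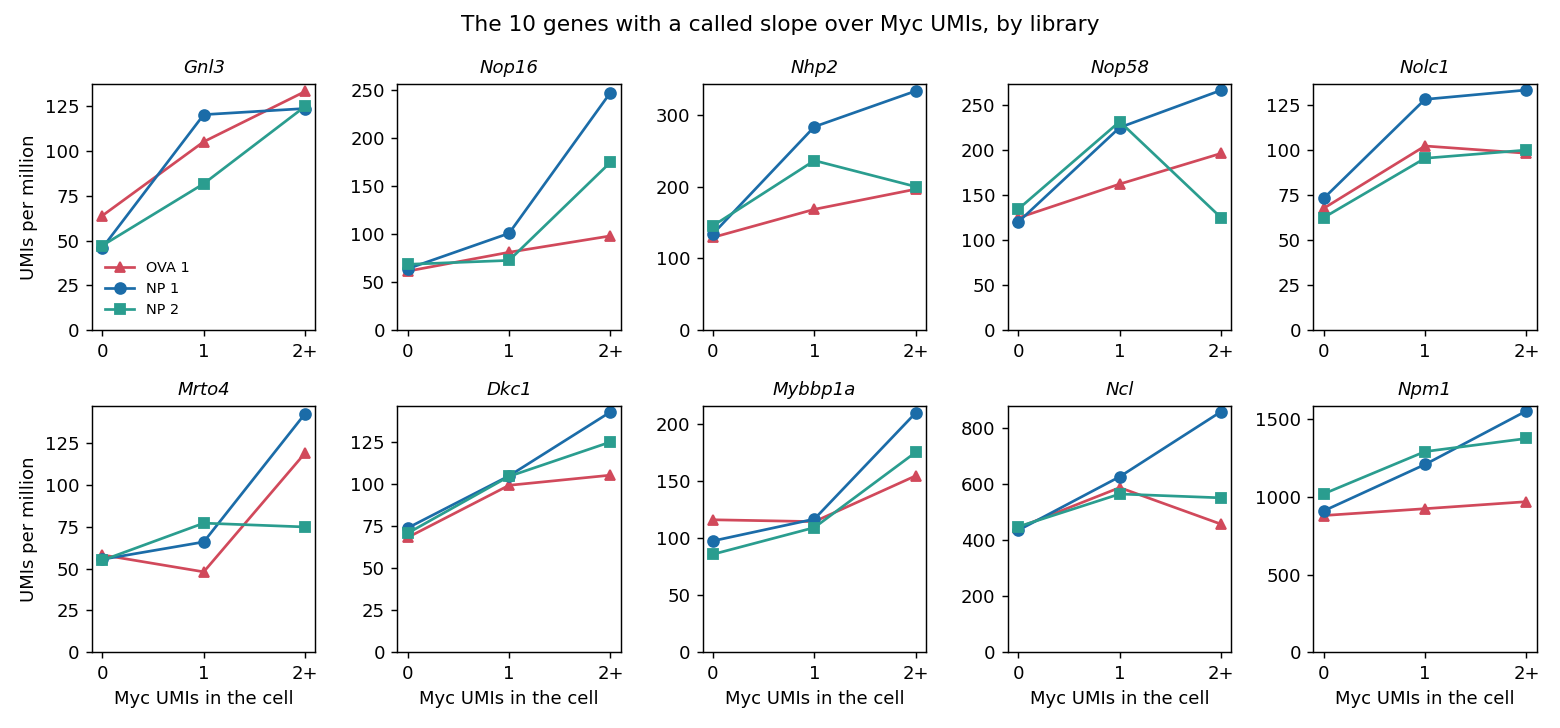
CPM (y axis) of the 10 genes with a called slope at 0, 1 and at least 2 Myc UMIs (x axis), with 1 line for each library. Gnl3 rises at each step in the 3 libraries; Nolc1 in OVA 1, Ncl in OVA 1 and NP 2, and Nop58, Nhp2 and Mrto4 in NP 2 are lower at 2 or more Myc UMIs than at 1, and Mrto4 and Mybbp1a in OVA 1 are lower at 1 than at 0.

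Between the Myc+ classes, cycling cells had the higher sum of the 36 genes, by 1.35-fold in OVA 1, 1.23-fold in NP 1 and 1.22-fold in NP 2. Of 35 members tested, 25 had positive folds and 2 were called higher, Npm1 and Rrp9, with none lower, where 2.69% of 7614 genes were called higher and 2.15% lower. Npm1 had 1339, 1556 and 1535 CPM in Myc+ cycling cells of OVA 1, NP 1 and NP 2, against 675, 984 and 1141 in Myc+ noncycling cells, with no overlap and a log2 fold of 0.66 ± 0.10 (adjusted p = 3.0e-06). NK cell markers (4 genes; Gzma, Ncr1 and Nkg7 at 0 in Myc+ cycling cells) summed to 0, 4.88 and 0 CPM in Myc+ cycling cells of OVA 1, NP 1 and NP 2, against 275, 343 and 0 in Myc+ noncycling cells. With cells holding UMIs of other cell types (NK, T, myeloid or erythroid) left out, the same 2 members were called and the median was 0.31. Memory or naive B cell markers (8 genes) summed to 373, 283 and 130 CPM in Myc+ cycling cells of OVA 1, NP 1 and NP 2. In Myc+ noncycling cells they summed to 960, 756 and 479 CPM, and their part in the result was not tested.

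Rrp9 had 69.3, 63.4 and 55.8 CPM in Myc+ cycling cells of OVA 1, NP 1 and NP 2, against 20.9, 12.7 and 19.7 in Myc+ noncycling cells. Its log2 fold was 1.74 ± 0.46 (adjusted p = 0.010) on 32 and 11 UMIs. Neither gene passed in a second draw of UMIs, where Npm1 had a log2 fold of 0.13 (adjusted p = 0.60) and Rrp9 one of 0.47 (adjusted p = 0.70), and Rrp9 had 0.29 (adjusted p = 0.55) with all UMIs kept. The median of the members was 0.22 against -0.02 over all genes, and 7 of 36 members were higher and 0 lower without overlap, where 9.94% of genes were higher and 5.36% lower. The large subunit factors had a median of -0.10, with 3 of 9 positive, and the cytosolic ribosomal proteins, which make up the finished ribosome and are not members, had 28 of 81 called lower and 0 higher.

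The difference by Myc detection was also compared between cells with and without an Mcm5 or Rrm2 UMI, by an interaction term over 4 groups. These groups hold all thinned cells and are not the classes above. The 2225 cells with such a UMI but no Myc UMI include mitotic cells. The 3430 cells with neither were not selected for Cd83. None of 36 members passed (edgeR, adjusted; 3 had an unadjusted p below 0.05, and DESeq2 called 0), where 0.0127% of 7854 genes did. The median interaction of the members was 0.02, and its sign changed over the refits. No change of the difference by Myc detection was detectable at this depth. In simulated counts with a preset spread and no library effect 18.5% of 2-fold differences were recovered, which does not measure power in these libraries.

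Myc+ noncycling cells were compared with Cd83-high noncycling cells, in which the light zone marker Cd83 but no Myc was detected. The latter were also selected for Cd83 and for no mitotic UMI, whereas 155 of 239 Myc+ noncycling cells held a Cd83 UMI. Of 35 members tested 28 had positive folds, with a median of 0.30 against -0.01 over all genes; 3 were called higher and none lower, where 1.26% of genes were called higher and 0.801% lower. Ncl had 518, 603 and 570 CPM in Myc+ noncycling cells of OVA 1, NP 1 and NP 2, against 353, 365 and 414 in Cd83-high noncycling cells. Without overlap, its log2 fold was 0.51 ± 0.12 (adjusted p = 0.0047).

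Nop58, which holds the box C/D particle together with Nop56, had 139, 222 and 210 CPM in Myc+ noncycling cells of OVA 1, NP 1 and NP 2, against 89.4, 106 and 121 in Cd83-high noncycling cells. Its log2 fold was 0.72 ± 0.19 (adjusted p = 0.022) and its groups did not overlap. Nhp2 had 160, 298 and 236 CPM in Myc+ noncycling cells of OVA 1, NP 1 and NP 2, against 130, 111 and 172 in Cd83-high noncycling cells; here the ranges overlapped, and the log2 fold was 0.66 ± 0.18 (adjusted p = 0.034). Npm1, not called, had 675, 984 and 1141 CPM in Myc+ noncycling cells, against 779, 797 and 998 in Cd83-high noncycling cells, with a log2 fold of 0.02. Among the role groups, 8 of 9 large subunit factors had positive folds, with a median of 0.63 and no call. Without overlap 10 of 36 members were higher and 1 lower, where 7.2% of genes were higher and 5.25% lower.

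Without NP 1 none of these 3 calls held (0 members), a second draw called 5 members of which Ncl was shared, and all UMIs gave 11, of which Ncl and Nop58 were shared. At 4000 UMIs per cell 3 members were called, Nolc1, Nop58 and Pno1, of which Nop58 was shared. NK cell markers (4 genes) summed to 275, 343 and 0 CPM in Myc+ noncycling cells of OVA 1, NP 1 and NP 2 and were at 0 in Cd83-high noncycling cells. With cells holding UMIs of other cell types left out, the same 3 members were called and the median was 0.33. Germinal center markers (8 genes) summed to 1346, 1479 and 1770 CPM in Myc+ noncycling cells of OVA 1, NP 1 and NP 2. In Cd83-high noncycling cells they summed to 1777, 2384 and 1949 CPM. Memory or naive B cell markers (8 genes) stood at 960, 756 and 479 CPM against 707, 556 and 574. The part of these markers in the result was not tested.

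Mitotic cells were lower than Myc- cycling cells in the sum of the 36 genes, at 0.857-fold in OVA 1, 0.914-fold in NP 1 and 0.942-fold in NP 2. The classes are not cleanly separate phases, since 308 of 917 mitotic cells also held an Mcm5 UMI. Of 35 members tested 28 had negative folds, 9 were called lower and none higher, where 7.75% of all genes were called lower and 7.17% higher. The median was -0.21, against -0.02 over all genes. Called were Npm1, Nolc1 and Mybbp1a of the major nucleolar proteins, Fbl and Nop56 of the box C/D particle, Dkc1, the pseudouridine synthase of the box H/ACA particle, Pes1 of PeBoW, and Rrp1b and Noc2l of the large subunit factors.

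Fbl, fibrillarin, the methyltransferase of the box C/D particle, had 165, 146 and 170 CPM in mitotic cells of OVA 1, NP 1 and NP 2, against 229, 193 and 209 in Myc- cycling cells. The groups did not overlap, and its log2 fold was -0.43 ± 0.10 (adjusted p = 0.0014). Rrp1b had the lowest called fold, -1.16 ± 0.31 (adjusted p = 0.0049), on 17.9, 8.67 and 9.34 CPM in mitotic cells of OVA 1, NP 1 and NP 2, against 33.8, 22.2 and 22.3 in Myc- cycling cells. It too was lower in each mitotic library than in any Myc- cycling one.

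Noc2l, whose yeast counterpart acts in early large subunit particles, had 19.2, 28.2 and 31.1 CPM in mitotic cells of OVA 1, NP 1 and NP 2, against 36, 43.9 and 44.5 in Myc- cycling cells. No values overlapped, at a log2 fold of -0.70 ± 0.20 (adjusted p = 0.011). Nolc1, a phosphoprotein that accompanies small nucleolar particles, had 68.7, 69.4 and 60.7 CPM in mitotic cells of OVA 1, NP 1 and NP 2, against 101, 89.9 and 81.4 in Myc- cycling cells, with a log2 fold of -0.48 ± 0.15 (adjusted p = 0.017).

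Npm1 had 910, 914 and 1032 CPM in mitotic cells of OVA 1, NP 1 and NP 2, against 1080, 1058 and 1146 in Myc- cycling cells; the ranges did not overlap, and the log2 fold was -0.24 ± 0.07 (adjusted p = 0.012). Pes1 overlapped, at 59.1, 75.9 and 60.7 CPM in mitotic cells and 110, 74.9 and 85.7 in Myc- cycling cells, with a log2 fold of -0.46 ± 0.15 (adjusted p = 0.028). Without overlap 8 of 36 members were lower and 0 higher, where 9.27% of genes were lower and 11.5% higher. Polr1b was listed at 5.50, 4.34 and 0 CPM in mitotic cells and 9.35, 9.30 and 7.71 in Myc- cycling cells, on 8 and 40 UMIs, and passed no adjusted test. Myeloid markers (8 genes) summed to 1725, 9.76 and 1885 CPM in mitotic cells of OVA 1, NP 1 and NP 2, against 27.3, 8.79 and 75.4 in Myc- cycling cells. With cells holding UMIs of other cell types left out, the same 9 members were called, at a median of -0.23. Without OVA 1 or without NP 1 2 calls held, Fbl being shared by both, and DESeq2 called 3.

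**Figure D4:**
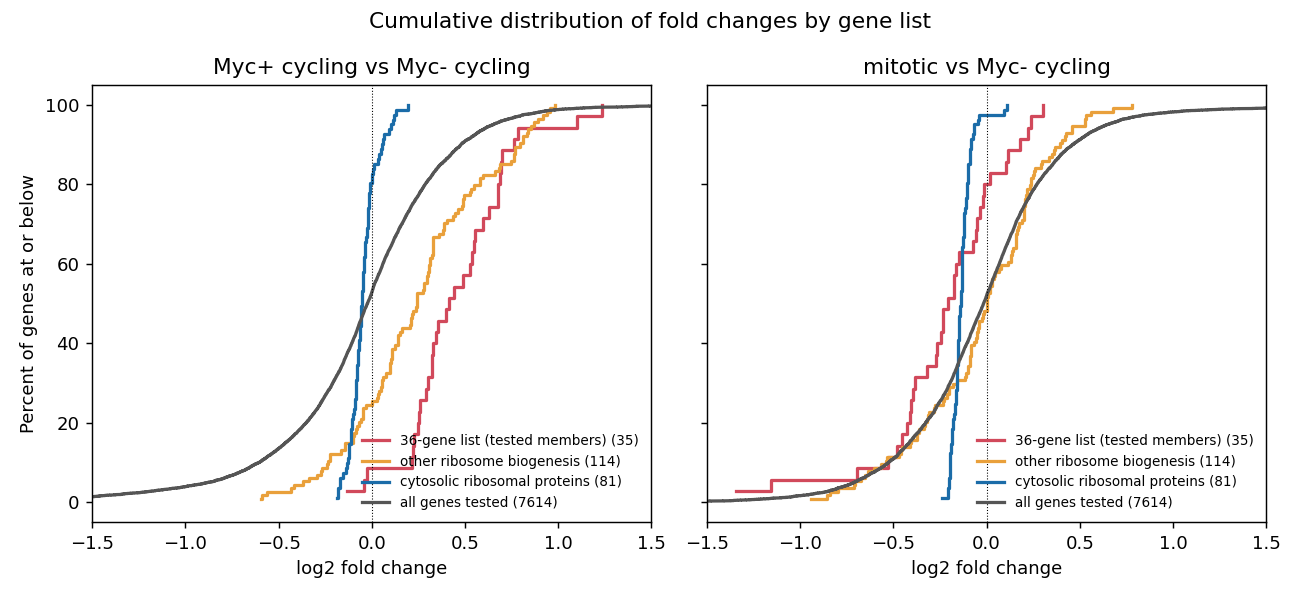
Cumulative percent of genes (y axis) at or below a log2 fold change (x axis) in Myc+ cycling against Myc- cycling cells (left) and in mitotic against Myc- cycling cells (right), for the tested members, other ribosome biogenesis genes, cytosolic ribosomal proteins and all genes. The members' curve lies right of that of all genes on the left, with a median of 0.41, and left of it on the right, with a median of -0.21.

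Against Cd83-high noncycling cells, mitotic cells had members in both directions. Their sum was 1.14-fold in OVA 1, 1.10-fold in NP 1 and 1.01-fold in NP 2, and 1.06-, 1.03- and 0.967-fold without Npm1 and Ncl. Of 35 members tested 14 had positive folds, 2 were called higher and 3 lower, where 16.2% of genes were called higher and 17.3% lower, so the members' share was below the background in each direction. Nop58 had 181, 137 and 182 CPM in mitotic cells of OVA 1, NP 1 and NP 2, against 89.4, 106 and 121 in Cd83-high noncycling cells, without overlap (log2 fold 0.51 ± 0.14, adjusted p = 0.0022).

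Ncl had 550, 504 and 490 CPM in mitotic cells of OVA 1, NP 1 and NP 2, against 353, 365 and 414 in Cd83-high noncycling cells, also without overlap (log2 fold 0.32 ± 0.09, adjusted p = 0.0029). Ppan, a large subunit factor, was lower, at 92.1, 104 and 117 CPM in mitotic cells of OVA 1, NP 1 and NP 2, against 119, 168 and 137 in Cd83-high noncycling cells (log2 fold -0.59 ± 0.15, adjusted p = 0.00093). Its groups stood just apart. Mybbp1a, a Myb-binding protein of the nucleolus, had 85.2, 84.6 and 76.3 CPM in mitotic cells and 102, 109 and 109 in Cd83-high noncycling cells of the same libraries (log2 fold -0.50 ± 0.16, adjusted p = 0.012).

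Pes1 had 59.1, 75.9 and 60.7 CPM in mitotic cells of OVA 1, NP 1 and NP 2, against 86.2, 80.5 and 88.4 in Cd83-high noncycling cells (log2 fold -0.48 ± 0.18, adjusted p = 0.032). None of the 3 lower members overlapped between the classes. In all, 4 of 36 members were higher and 5 lower without overlap, where 22.1% of genes were higher and 12.3% lower. The cytosolic ribosomal proteins had 69 of 81 called lower and 1 higher, with a median of -0.37, against -0.18 for the members and -0.04 for all genes. Myeloid markers were at 42.3, 9.56 and 2.33 CPM in the Cd83-high cells of OVA 1, NP 1 and NP 2, against the levels given above for mitotic cells; with such cells left out, 4 of the 5 members were still called, without Pes1.

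No member passed the test between the OVA and NP libraries. Over whole libraries the count was 0 of 36 (edgeR, adjusted; 0 members had an unadjusted p below 0.05, and DESeq2 called 0), where 0.182% of 10442 genes did, and the median fold was 0.06. Npm1 had 884 CPM in OVA 1, against 934 in NP 1 and 1037 in NP 2; Ncl had 453 in OVA 1, against 450 and 455 in NP 1 and NP 2. The test has 1 OVA library and 1 residual degree of freedom. Simulated counts with a preset spread gave back 63.0% of 2-fold changes, which does not measure power in these libraries. Within Myc+ noncycling cells the OVA library had the lowest sum of the 36 genes, 9.33 UMIs per cell, against 11.9 in NP 1 and 10.9 in NP 2; with 1 OVA library this was not tested.

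A list of 119 other ribosome biogenesis genes was set beside the members. In Myc+ cycling against Myc- cycling cells its median was 0.24, with 85 of 114 tested genes positive and 0 called (edgeR; 13 had an unadjusted p below 0.05). Over Myc UMIs the median slope was 0.14. Of 77 tested, 9 were called higher and 0 lower, where 3.32% of all genes were called higher and 1.59% lower. The steepest of these were Nle1 (0.91 ± 0.27, adjusted p = 0.036), Heatr1 (0.70 ± 0.21, adjusted p = 0.039), Mdn1 (0.70 ± 0.20, adjusted p = 0.025), Mphosph10 (0.67 ± 0.14, adjusted p = 0.00098) and Nufip1 (0.60 ± 0.19, adjusted p = 0.046). Mdn1 and Nle1 act together in large subunit maturation in yeast, Heatr1 and Mphosph10 in early small subunit particles, and Nufip1 in the assembly of box C/D particles.

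In mitotic against Myc- cycling cells 6 of the 114 were called lower and 6 higher, a smaller share than the 7.75% and 7.17% of all genes. Those higher were Nol8, Ruvbl1, Ddx52, Znrd1, Ngdn and Twistnb, with log2 folds between 0.40 and 0.78. Ubtf, the factor that opens ribosomal DNA for RNA polymerase I, had a log2 fold of -0.86 ± 0.13 (adjusted p = 1.5e-07), Utp20 of the small subunit particle -0.94 ± 0.30 (adjusted p = 0.023), Rcl1 -0.71 ± 0.23 (adjusted p = 0.025) and Rrp15 -0.67 ± 0.21 (adjusted p = 0.019), while Nol8 had 0.78 ± 0.24 (adjusted p = 0.015). Against Cd83-high noncycling cells 10 were called higher and 6 lower in mitotic cells, again a smaller share than the 16.2% and 17.3% of all genes. The extremes were the exosome subunit Exosc8 (1.22 ± 0.17, adjusted p = 3.3e-09), the ATPase Ruvbl2 (0.84 ± 0.19, adjusted p = 0.00017), the acetyltransferase Nat10 (-1.22 ± 0.44, adjusted p = 0.026), Mdn1 (-1.03 ± 0.30, adjusted p = 0.0050) and Rcl1 (-0.86 ± 0.27, adjusted p = 0.0097). In Myc+ noncycling against Cd83-high noncycling cells 1 of 114 tested was called, Mphosph10 (1.20 ± 0.29, adjusted p = 0.0099). Of all genes 1.26% were called higher there and 0.801% lower. Between the Myc+ classes Znhit6 (-1.78 ± 0.55, adjusted p = 0.043) and Nsa2 (-0.48 ± 0.15, adjusted p = 0.043) were lower in cycling cells. They were the 2 called of 114 tested, where 2.15% of all genes were called lower and 2.69% higher.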

How the data were processed

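Per the labels, the libraries are 10x 5′-end single-cell RNA-seq; the submitters' processing notes name Cell Ranger and build mm10. The authors deposited raw UMI counts for all cells in 1 table, and contig annotations with UMI counts per immunoglobulin chain, used here only to leave out cells with more than 1 productive heavy chain. The bulk heavy chain libraries were not used. Cells were thinned without replacement with 1 seed, UMIs were summed per class and library, and sums were tested with edgeR 4.0.16 (TMM factors, filterByExpr, glmQLFTest) in R 4.3.3, with the library as a block, since the classes of a library come from the same sample. The 225 immunoglobulin genes and the genes that define the classes were left out of the tests. Steps were tested on simulated data: 2-fold changes were recovered for 20.5% (Myc+ cycling against Myc+ noncycling), 41.5% (Myc+ noncycling against Cd83-high noncycling), 38.0% (Myc+ cycling against Myc- cycling), 77.0% (mitotic against Cd83-high noncycling), 80.0% (mitotic against Myc- cycling) and 92.5% (slope over Myc UMIs) of 200 changed genes each. The simulated counts had a preset spread and no library effect, with changes only in genes above a set expected count. These shares thus do not measure power in these libraries. Intervals cover counting error only. Alternatives were DESeq2 1.42.0, no TMM factors, no low-count filter, 4000 UMIs or all UMIs per cell, another draw, stricter cells (at most 5% mitochondrial UMIs and at least 1000 genes), cells with over 1 heavy chain or with at least 2 UMIs of 24 markers of other cell types left out, cuts of 3 Cd83 UMIs and 5 mitotic UMIs, no library block, and each library left out. With all UMIs kept, cells stayed in the classes of the first draw. The members and gene lists were chosen with earlier results of these data known. Genes named are the called members at the ends of each comparison, the most abundant member of each role, and up to 5 called genes of the other list. A few others (Polr1b, Rrp12, Pno1 and genes counted in short lists) were named after their values were seen. A further list of marker genes is not reported here.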

Additional observations from a re-analysis of the deposited data

How the results depend on the processing

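The direction of the members was steadier than the calls. Over the refits their median stayed above 0 in Myc+ cycling against Myc- cycling cells (0.28 to 0.51), in Myc+ noncycling against Cd83-high noncycling cells (0.20 to 0.42), between the Myc+ classes (0.13 to 0.31) and for the slope over Myc UMIs (0.23 to 0.43), and below 0 in mitotic against Myc- cycling cells (-0.28 to -0.12). It turned to 0.013 in mitotic against Cd83-high noncycling cells with all UMIs kept. The median of the interaction, 0.02, became -0.088 with all UMIs kept, -0.19 in another draw, -0.15 with stricter cells and ranged from -0.046 to 0.028 with a library left out; that of OVA against NP, 0.06, became -0.010 at 4000 UMIs and -0.063 with stricter cells. The cause was not tested.

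Of 451 refits of the 33 called member results, 291 still passed, 159 did not, and 1 changed sign (Nhp2 in Myc+ cycling against Myc- cycling cells, -0.022 in another draw, adjusted p = 1.00). Of 239 refits of 18 other named genes, 153 passed and 1 changed sign (Rrp15 in mitotic against Myc- cycling cells, 0.00058 with all UMIs). The most abundant members of each role that were not called changed sign in 64 of 615 refits.

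Members called higher in Myc+ cycling against Myc+ noncycling cells (2) became 5 at 4000 UMIs, 5 with all UMIs, 1 in another draw and 1 with stricter cells, and 1 to 2 with a library left out. In Myc+ noncycling against Cd83-high noncycling cells (3) they became 11 with all UMIs and 5 in another draw, and 0 to 3 with a library left out. At 4000 UMIs 3 members were called there, of which Nop58 was shared. In Myc+ cycling against Myc- cycling cells (4) the members called higher became 1 with no low-count filter, 12 with all UMIs, 0 in another draw and 1 with stricter cells, and 0 to 3 with a library left out. At 4000 UMIs 5 members were called there, of which Npm1 was shared. In mitotic against Cd83-high noncycling cells those higher (2) became 5 at 4000 UMIs and 5 with all UMIs, and 1 to 2 with a library left out; those lower (3) became 1 without TMM factors, 8 with all UMIs and 1 at the Cd83 cut of 3, and 1 to 2 with a library left out. In mitotic against Myc- cycling cells those lower (9) became 3 with DESeq2 and 4 with stricter cells, and 2 to 6 with a library left out. Called slopes over Myc UMIs (10) became 6 with DESeq2, 4 with no low-count filter, 18 at 4000 UMIs, 30 with all UMIs and 6 in another draw, and 1 to 9 with a library left out.

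Without the replicate block for the library, members called were 1 between the Myc+ classes, 0 in Myc+ noncycling against Cd83-high noncycling cells, 0 in Myc+ cycling against Myc- cycling cells, 1 higher and 1 lower in mitotic against Cd83-high noncycling cells, 0 lower in mitotic against Myc- cycling cells and 2 for the slope. The pairing is that of classes within a library. Counts over all genes moved too: 113 to 1270 between the Myc+ classes (369), 17 to 660 in Myc+ noncycling against Cd83-high noncycling cells (157), 3 to 193 in Myc+ cycling against Myc- cycling cells (44), 1523 to 4388 (2546) and 207 to 2504 (1136) for mitotic against Cd83-high noncycling and Myc- cycling cells, 55 to 761 for the slope (201), 0 to 3 for the interaction (1) and 8 to 154 for OVA against NP (19). OVA against NP was not tested with a library left out, since that leaves no residual degrees of freedom or no OVA library. Without a low-count filter the median of all genes was -0.189 in Myc+ cycling against Myc- cycling cells and -0.153 for the slope.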
